A study of Mus musculus with 23 samples.

Results

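The genes described are 10 members of the BCL2 family, taken by name from a list and matched by gene ID among the 21878 genes of the expression tables of sorted neutrophils. All 10 were found. The list was drawn up with earlier results of these data known. Bulk RNA-Seq had been run on neutrophils sorted as CD45+CD11b+Ly6G+ cells from perfused lung, peripheral blood (PB) and bone marrow (BM) of WT mice, with 3 libraries per tissue. In a second experiment, neutrophils came from lung and PB of WT mice and of *Piezo1*-cKO mice, with 2 libraries for each tissue and genotype. PIEZO1 is a mechanically gated cation channel, and the cKO joins a floxed *Piezo1* allele with Vav1-iCre, which is active across hematopoietic cells and is not restricted to neutrophils. The mice were untreated C57BL/6J animals, and the labels do not say whether the WT mice of the second experiment carried the floxed allele. Lungs were digested with collagenase and DNase at body temperature before sorting, a step that PB and BM cells did not share. PB and lung cells also went through a neutrophil negative selection kit, which the study's methods do not name for the BM cells sequenced. Whole-lung libraries of the same series were not used here.

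BCL2 family proteins set the threshold of mitochondrial apoptosis. Antiapoptotic members (A1, encoded in the mouse by the *Bcl2a1* genes, and MCL1, BCL2 and BCL-XL, the product of *Bcl2l1*) bind and hold the proapoptotic ones. BH3-only members such as BIM (*Bcl2l11*) and BID respond to stress or death-receptor signals, and the effectors BAX and BAK (*Bak1*) permeabilize the outer mitochondrial membrane. Mature neutrophils are short-lived, carry little BCL2 and depend on the labile MCL1 protein, while A1 is a classic NF-κB target induced in activated myeloid cells.

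On the mm10 build, the 3 *Bcl2a1* genes lay close together on chromosome 9, *Bcl2a1d* on the minus strand at chr9:88723288-88731850, and *Bcl2a1a* and *Bcl2a1b* on the plus strand at chr9:88956920-88962416 and chr9:89199273-89207838. The other members were spread over the genome, at chr3:95656944-95663179 for *Mcl1*, chr1:106538176-106714290 for *Bcl2*, chr2:152758732-152833803 for *Bcl2l1*, chr2:128126038-128162547 for *Bcl2l11*, chr6:120893119-120917062 for *Bid*, chr7:45461695-45466903 for *Bax* and chr17:27019812-27028627 for *Bak1*. The coding sequences of the 3 *Bcl2a1* genes are each 519 bases long and differ at 12 positions, with 97.9% identity between *Bcl2a1a* and *Bcl2a1b*, 98.7% between *Bcl2a1a* and *Bcl2a1d*, and 98.8% between *Bcl2a1b* and *Bcl2a1d*. The first 90 coding bases hold 6 of those positions and are shown because they are the stretch by which reads of the copies can best be told apart. Capitals mark the bases at which the 3 genes are not all alike (GENCODE vM21 transcripts).
Bcl2a1a: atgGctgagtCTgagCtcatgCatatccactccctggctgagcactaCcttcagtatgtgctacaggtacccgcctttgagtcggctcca
Bcl2a1b: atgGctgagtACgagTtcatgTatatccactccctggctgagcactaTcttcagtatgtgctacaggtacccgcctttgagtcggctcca
Bcl2a1d: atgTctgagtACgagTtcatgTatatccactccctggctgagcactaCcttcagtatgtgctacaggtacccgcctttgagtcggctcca

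Windows of 150 bases, the read length, that occur unchanged in another *Bcl2a1* transcript made up 28.2% of the *Bcl2a1a* transcript, 14.2% of *Bcl2a1b* and 30.3% of *Bcl2a1d*. Reads could therefore be split between the copies or dropped, and the values of single copies are given with their sum. The promoters are copies as well. The 250 bases before each annotated start (RefSeq, GRCm38.p6) are shown because the 3 genes moved together between tissues, with capitals on the motif GAGGAAGT, the binding motif of the myeloid factor PU.1.
Bcl2a1a, chr9:88956670-88956919 (plus strand): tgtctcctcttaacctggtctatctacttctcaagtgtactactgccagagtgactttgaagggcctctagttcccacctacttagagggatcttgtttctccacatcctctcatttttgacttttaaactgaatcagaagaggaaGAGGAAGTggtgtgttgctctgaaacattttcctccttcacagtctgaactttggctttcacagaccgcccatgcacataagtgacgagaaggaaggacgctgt
Bcl2a1b, chr9:89199023-89199272 (plus strand): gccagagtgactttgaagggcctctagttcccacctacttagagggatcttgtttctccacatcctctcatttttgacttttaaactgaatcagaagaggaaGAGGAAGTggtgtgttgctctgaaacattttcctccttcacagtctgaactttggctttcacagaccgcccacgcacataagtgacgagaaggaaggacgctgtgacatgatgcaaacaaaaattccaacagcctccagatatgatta
Bcl2a1d, chr9:88731851-88732100 (minus strand): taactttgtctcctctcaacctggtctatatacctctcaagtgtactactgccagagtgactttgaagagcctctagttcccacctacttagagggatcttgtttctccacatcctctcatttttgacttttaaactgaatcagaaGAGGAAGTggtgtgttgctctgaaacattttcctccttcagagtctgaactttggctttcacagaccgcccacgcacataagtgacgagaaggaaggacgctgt

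All 3 windows held this motif, which was found on either strand in 3.2% of 32851 promoter windows of 300 bases, and *Bak1* was the only other member with it. The longest run shared by *Bcl2a1a* and *Bcl2a1b* was 174 bases, and *Bcl2a1d* shared a run of 84 bases with each of them. The motif TGANTCA of AP-1 stood once in each of the 3 *Bcl2a1* windows, and in 7.81% of all. An NF-κB motif was found in no *Bcl2a1* window, in 1 of the 3 start windows of *Bcl2l1* and in 8.46% of all. TGTTTAC, bound by FOXO factors, was found in 1 of the 2 windows of *Bcl2l11* and in 3.65% of all. The STAT motif TTCNNNGAA was found in no member's window and in 8.3% of all. The motifs searched did not overlap one another at the capitals shown, they were chosen after the sequences had been seen, and a match describes the letters only.

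The libraries held 16502142 to 19330763 reads counted on genes in the tissue experiment and 9621002 to 15034628 in the *Piezo1* experiment, and 3 reads, taken as the floor, are 0.155 to 0.312 counts per 1e+06 reads. The 8 neutrophil markers listed were at 1 FPKM or more in every library. Markers of immature neutrophils summed to 36646 to 37779 FPKM in BM, 553 to 790.0 in PB and 604 to 628 in lung. The 10 immediate early genes, which respond to handling and to enzymatic digestion, summed to 2388 to 2422 FPKM in BM, 11749 to 13558 in PB and 11644 to 11798 in lung. The 8 monocyte and macrophage markers summed to 671 to 809.6 FPKM in BM, 253 to 302 in PB and 187 to 192 in lung, with 5, 3 and 3 of them at 1 FPKM or more in every library. The 5 lung epithelium and endothelium markers summed to at most 5.67 FPKM. B cell markers (4 genes) summed to at most 0.945 FPKM in any tissue library. Of the 3 PB libraries, the third stood apart from the other two, with a chi-square per degree of freedom over genes of 24.6 and 41.0 against 2.16 to 4.72 for the other pairs of the tissue experiment. Nothing in the labels says whether libraries came from separate animals, although the study counts mice, and p-values measure the spread between these libraries.

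*Lung, PB and BM neutrophils of WT mice.* The tissue comparison asks how neutrophils of the lung vessels differ from those in circulation and from those at their site of production. Lung neutrophils had high *Bcl2a1* and *Bcl2l11*, a moderate gain of *Bcl2l1*, low *Bak1*, and less *Bid* than PB neutrophils. *Mcl1* was high in both PB and lung, and *Bax* gave no call on deposited FPKM. A gene was called a differentially expressed gene (DEG) at an adjusted p below 0.05 and an absolute difference above 1 on the log2(FPKM + 1) scale in limma, with at least 1 FPKM in 3 libraries (2 in the *Piezo1* experiment). Of the 9 members tested, 5 rose and 2 fell in lung against PB, where 7.75% and 19.5% of 7577 genes did. In lung against BM 6 rose and 1 fell, against 9.86% and 36.0% of 8236 genes, and in PB against BM 6 rose and none fell, against 7.85% and 14.1% of 8237 genes. The 3 near-identical *Bcl2a1* copies were among the rises of each comparison, so 1 signal may be counted more than once there. The share of all genes is taken over mostly distinct genes. Lung libraries enter both lung comparisons, and each PB and BM library also enters the third, so the 3 comparisons are not independent.

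FPKM depends on what the other transcripts in a library do. The median difference of all genes tested was -0.54 for lung against PB, -0.70 for lung against BM and -0.12 for PB against BM, so a gene at 0 in a lung comparison stood above most genes. Dividing each library by its median ratio to the average library (rescaled FPKM) moved the DEGs of lung against PB from 587 higher and 1476 lower to 939 and 459, and those of lung against BM from 812 and 2965 to 1565 and 1197. Both scales are given below where they part.

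**Figure D1:**
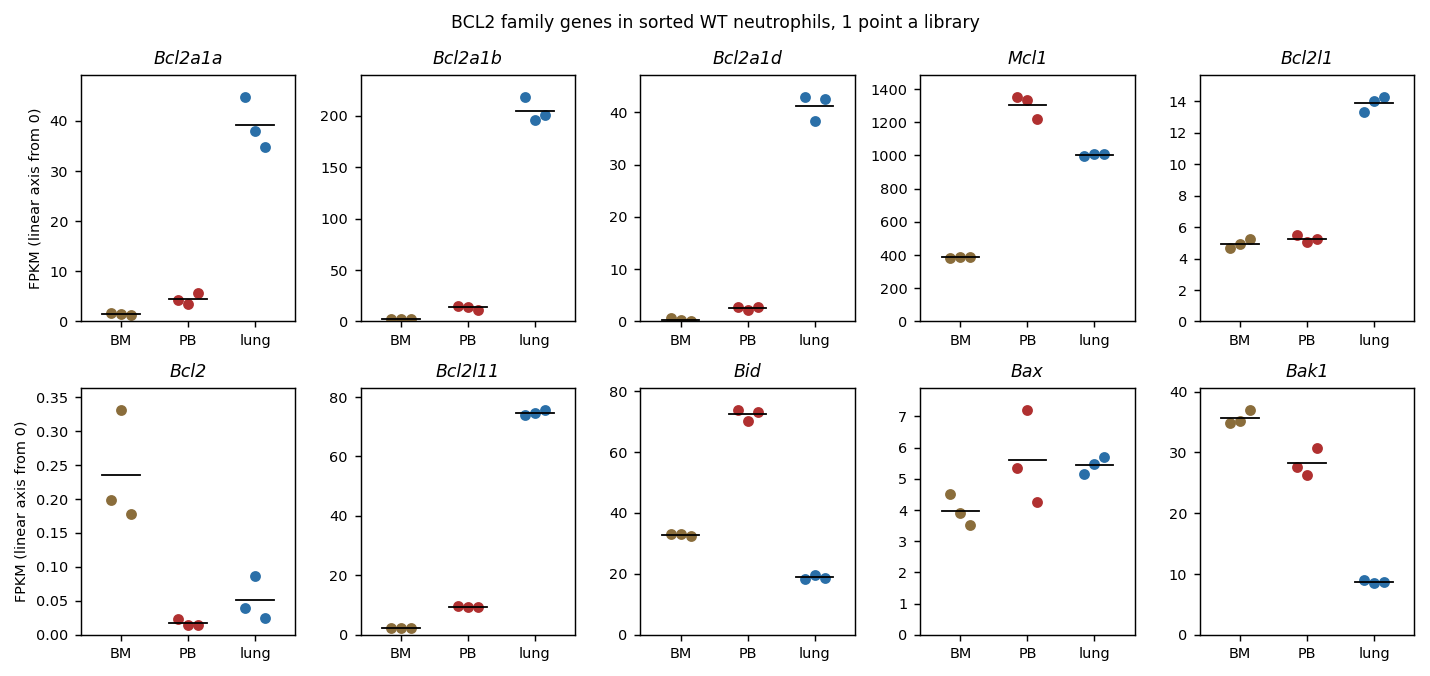
FPKM (linear axes from 0, a scale of its own for each gene) of the 10 members in the libraries of WT neutrophils from BM, PB and lung; each point is 1 library and each line the mean of 3. The *Bcl2a1* genes and *Bcl2l11* are highest in lung, *Bid* in PB, *Bak1* and *Bcl2* in BM, and *Mcl1* is higher in PB and lung than in BM.

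*Bcl2a1b*, the most abundant *Bcl2a1* copy, was at 2.52, 2.03 and 1.99 FPKM in the BM libraries, 15.3, 14.4 and 11.6 in PB, and 219, 196 and 201 in lung. The groups did not overlap, and the order was BM, PB, lung. Mean FPKM was 14.9-fold higher in lung than in PB and 94.0-fold higher than in BM, with differences of 3.81 ± 0.10 (SE, adjusted p = 1.97e-08) and 6.02 ± 0.07 (adjusted p = 3.06e-13) on the log2(FPKM + 1) scale by limma. *Bcl2a1a* was at 1.70, 1.43 and 1.37 FPKM in BM, 4.19, 3.41 and 5.68 in PB, and 44.8, 37.9 and 34.9 in lung. *Bcl2a1d* was at 0.655, 0.195 and 0.137 FPKM in BM, 2.77, 2.18 and 2.70 in PB, and 42.9, 38.3 and 42.6 in lung. Both followed the same order as *Bcl2a1b*, and the BM values of *Bcl2a1d* rest on 2 to 10 reads per library. The rise in lung against PB was 2.90 ± 0.15 for *Bcl2a1a* and 3.58 ± 0.09 for *Bcl2a1d* (limma adjusted p = 8.09e-07 and 1.50e-08). From BM to PB, the 3 copies rose by 1.10 (*Bcl2a1a*), 2.21 (*Bcl2a1b*) and 1.43 (*Bcl2a1d*). The call of *Bcl2a1a* between PB and BM was lost without the third PB library, at 0.94.

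Summed over the 3 copies, A1 transcripts were at 4.01 ± 0.757 FPKM in BM, 20.7 ± 1.32 in PB and 286 ± 18.1 in lung (mean ± SD, n = 3). *Bcl2a1b* made up 51.7% to 57.0% of that sum in BM, 58.1% to 72.0% in PB and 71.4% to 72.1% in lung. On deposited FPKM the summed immediate early genes overlapped between lung and PB, and the monocyte and macrophage markers were lowest in lung. These marker sums were not rescaled, and their part in the *Bcl2a1* differences was not tested. The *Bcl2a1* sum hardly depends on how the reads that were counted were split among the copies. Reads dropped because they match more than 1 copy would lower it, and the sources used here do not say how such reads were treated. The sum differed by 3.72 ± 0.07 between lung and PB, by 5.85 ± 0.09 between lung and BM and by 2.13 ± 0.11 between PB and BM (limma adjusted p = 3.69e-09, 3.34e-12 and 8.25e-07). Of the *Bcl2a1b* exon bases, 49.1% also lie in exons of the annotated gene *Gm29094* on the same strand, so a counter that drops ambiguous reads would lower *Bcl2a1b* and the sum.

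In the tissue experiment, *Mcl1* was by far the most abundant of the antiapoptotic members per unit of length. It was at 383, 391 and 388 FPKM in BM, 1352, 1335 and 1222 in PB, and 996, 1009.5 and 1011 in lung. PB and lung were both above BM, by 1.75 ± 0.06 and 1.37 ± 0.02 on the log2(FPKM + 1) scale (limma adjusted p = 8.92e-08 and 7.28e-13). The step from PB to lung stayed under the DEG threshold, and its direction turned with the scale: -0.37 ± 0.06 on deposited FPKM and 0.26 after rescaling (limma adjusted p = 0.000388 on deposited FPKM). The immediate early genes were also higher in PB and lung than in BM, as given above, and their part in the *Mcl1* difference was not tested.

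*Bcl2l1*, which encodes BCL-XL, was at 4.68, 4.95 and 5.24 FPKM in BM and at 5.47, 5.03 and 5.24 in PB. Those groups overlapped and did not differ beyond their spread on deposited FPKM (0.07 ± 0.07, limma adjusted p = 0.410). After rescaling the difference was 0.16 (limma adjusted p = 0.0710), with 0.21 in edgeR and 0.22 in DESeq2 (adjusted p = 0.0306 and 0.0553), under the fold threshold in each. In lung it was at 13.3, 14.0 and 14.3 FPKM, above both, a rise of 1.25 ± 0.07 against PB and of 1.32 ± 0.06 against BM (limma adjusted p = 6.80e-07 and 6.62e-09).

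*Bcl2*, the founding member, was near the floor in all tissues and did not enter the limma test. It had 28, 47 and 24 reads in BM, 3, 2 and 2 in PB and 5, 11 and 3 in lung, or 0.199, 0.331 and 0.178 FPKM against at most 0.0231 in PB and 0.0872 in lung. BM was thus the highest, without overlap. DESeq2 on the recovered reads gave a log2 difference of -3.62 for PB against BM (adjusted p = 2.65e-06) and of -1.38 for lung against BM (adjusted p = 0.0296). The immature neutrophil markers were also highest in BM, and the B cell markers reached 0.484 to 0.945 FPKM there against at most 0.163 in PB and lung. Their part in the BM level of *Bcl2* was not tested. In sorted bulk samples, fewer cells of a type and less RNA per cell cannot be told apart.

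Among the proapoptotic members, *Bcl2l11*, which encodes the BH3-only protein BIM, rose most. It was at 2.13, 2.44 and 2.27 FPKM in BM, 9.66, 9.45 and 9.29 in PB, and 73.9, 74.6 and 75.6 in lung. The spread within each tissue was small against the steps between them, which were 1.68 ± 0.07 from BM to PB and 2.85 ± 0.05 from PB to lung (limma adjusted p = 2.44e-07 and 2.09e-09). In linear terms, mean FPKM was 7.89-fold higher in lung than in PB and 32.8-fold higher than in BM.

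*Bid*, whose product links death receptors to mitochondria once cleaved by caspase-8, peaked in PB. Its FPKM was 33.0, 33.0 and 32.3 in BM, 73.7, 70.2 and 73.2 in PB, and 18.3, 19.8 and 18.8 in lung. It rose by 1.12 ± 0.05 from BM to PB and was lower by 1.88 ± 0.05 in lung than in PB, a 3.82-fold difference in mean FPKM (limma adjusted p = 2.72e-07 and 2.76e-08). Between lung and BM the difference was -0.76 ± 0.04 on deposited FPKM and 0.02 after rescaling, so no direction can be given there. Of the *Bid* exon bases, 17.7% overlap exons of *Bcl2l13* on the opposite strand, and the sources used here do not say whether counting used strand.

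The effector *Bak1* was at 34.8, 35.2 and 36.9 FPKM in BM, 27.6, 26.4 and 30.8 in PB, and 8.97, 8.47 and 8.72 in lung. It was lower in lung without overlap, by -1.59 ± 0.07 against PB and -1.92 ± 0.04 against BM (limma adjusted p = 3.12e-07 and 4.53e-11). After rescaling the difference to PB was -0.995 and no longer passed the threshold, and the one to BM was -1.15. *Bak1* shares 25.5% of its exon bases with *Ggnbp1* on the opposite strand. The other effector, *Bax*, was at 4.52, 3.91 and 3.52 FPKM in BM, 5.36, 7.20 and 4.25 in PB, and 5.16, 5.47 and 5.69 in lung. PB overlapped both other tissues. Lung against PB gave -0.01 ± 0.15 for *Bax* on deposited FPKM (limma adjusted p = 0.943). After rescaling it was 0.52 (limma adjusted p = 0.0117), with 0.58 in edgeR and 0.59 in DESeq2 (adjusted p = 0.0102 and 0.00620), under the fold threshold in each. Lung against BM gave 0.37 ± 0.08 on deposited FPKM and 1.04, past the threshold, after rescaling.

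**Figure D2:**
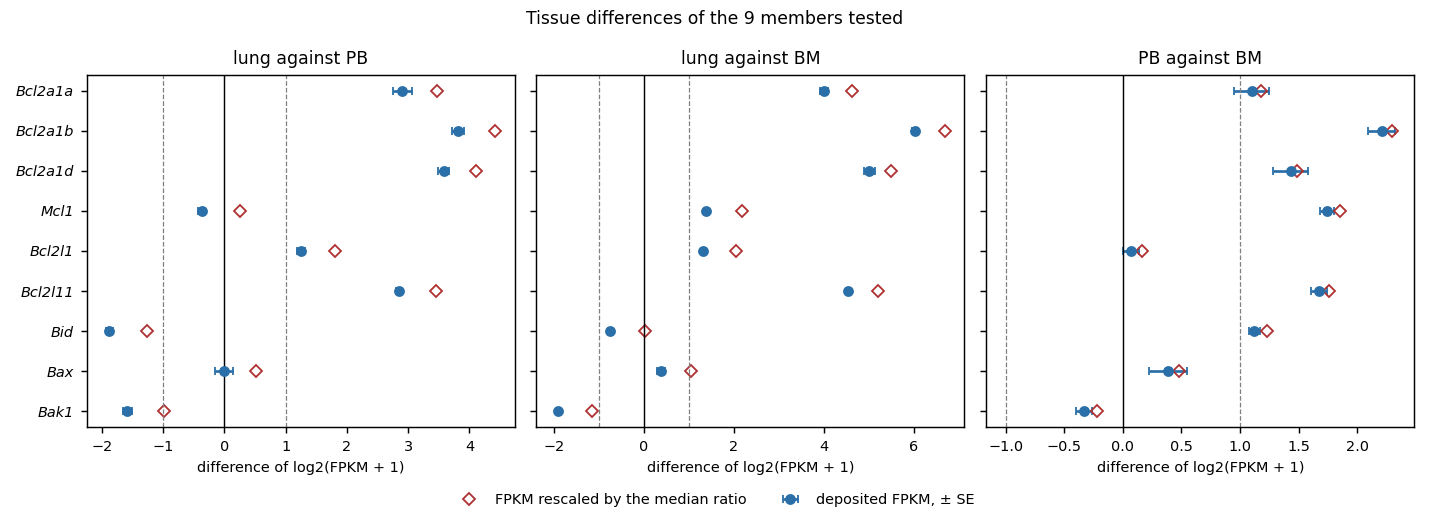
Differences of log2(FPKM + 1) for the 9 members tested, in lung against PB, lung against BM and PB against BM, on deposited FPKM (filled circles, bars are ± SE) and after rescaling by the median ratio (open diamonds); dashed lines mark the DEG threshold of 1. Rescaling moved the lung comparisons to the right, which took *Mcl1* in lung against PB from -0.37 to 0.26 and left the *Bcl2a1* genes and *Bcl2l11* far above the threshold.

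The makeup of the family within a library does not depend on that scale. *Mcl1* accounted for 97.5% to 97.8% of the summed FPKM of the 6 antiapoptotic members in BM and 98.0% to 98.2% in PB, but for 75.7% to 77.9% in lung. The *Bcl2a1* genes took 0.881% to 1.24%, 1.47% to 1.61% and 21.0% to 23.3% in BM, PB and lung. *Bcl2l1* stayed between 0.370% and 1.32% in all 9 libraries. On the proapoptotic side, *Bcl2l11* took 2.86% to 3.27% of the summed FPKM of the 4 members in BM, 7.91% to 8.35% in PB and 68.9% to 69.5% in lung. *Bak1* held the largest share in BM at 46.8% to 49.2%, close to *Bid* at 43.0% to 44.3%, and *Bid* led in PB at 62.0% to 63.4%. Each tissue of this experiment thus had a different leading proapoptotic transcript, by a narrow margin in BM. In the *Piezo1* experiment *Bid* led in PB, at 89.5% to 90.9%, and in lung *Bcl2l11* and *Bid* were close, at 42.3% to 43.4% and 40.5% to 42.9% in WT and 37.2% to 41.2% and 44.5% to 48.5% in *Piezo1*-cKO mice. The ratio of *Bcl2l11* to *Bid* FPKM was 0.0696 ± 0.00472 in BM, 0.131 ± 0.00383 in PB and 3.94 ± 0.151 in lung (mean ± SD, n = 3).

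The summed FPKM of the 6 antiapoptotic members was 393 to 400.0 in BM, 1247 to 1380.2 in PB and 1296 to 1316 in lung, and that of the 4 proapoptotic members was 74.5 to 75.0, 113 to 118 and 106 to 109. Antiapoptotic over proapoptotic FPKM was 5.31 ± 0.0472 in BM, 11.5 ± 0.772 in PB and 12.1 ± 0.229 in lung (mean ± SD, n = 3). PB and lung overlapped in that ratio (10.6 to 12.0 and 12.0 to 12.4). They did not in the *Piezo1* experiment, where it was 3.36 to 3.43 in PB and 11.4 to 11.7 in lung of WT mice, and 3.27 to 3.39 and 8.98 to 9.83 in *Piezo1*-cKO mice. The proapoptotic sum leaves out further BH3-only genes that moved in different ways. *Pmaip1* had mean FPKM of 7.57 in BM, 49.3 in PB and 37.6 in lung, and *Bad* of 13.9, 12.1 and 4.62. The ratio and its overlap between PB and lung thus hold for these 10 genes only. The sums are of transcripts and say nothing of the proteins, several of which are regulated by turnover.

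**Figure D3:**
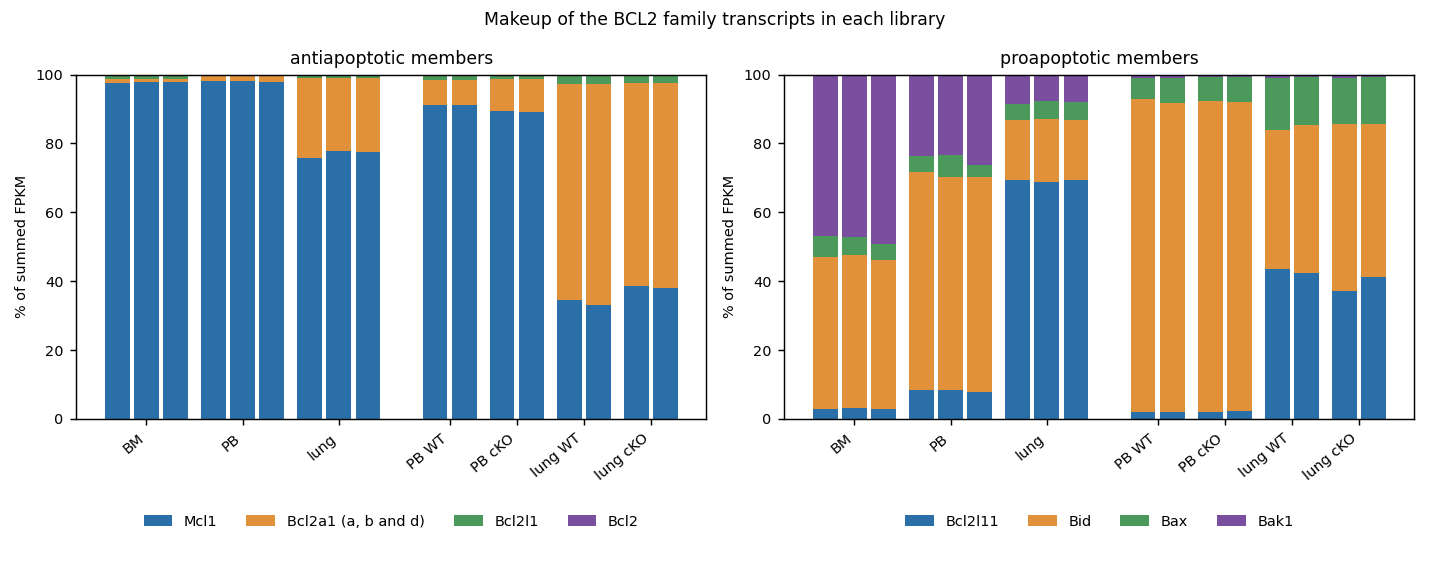
Share of each member in the summed FPKM (percent) of the 6 antiapoptotic members (left, the 3 *Bcl2a1* genes together) and the 4 proapoptotic members (right), with 1 bar per library; the 9 bars on the left of each panel are the tissue experiment and the 8 on the right the *Piezo1* experiment. The *Bcl2a1* and *Bcl2l11* shares are largest in the lung libraries of both experiments.

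Beyond these 10 genes, 45 genes of the same pathway were listed: other family proteins, further BH3-only genes, the apoptosome with caspases and their inhibitors, the death receptor pathway, and genes of MCL1 turnover and mitochondrial partners. Of the 32 tested in lung against PB, 5 rose and 6 fell on deposited FPKM, where 7.75% and 19.5% of all genes did, and the median of the 32 was -0.42 against -0.54 for all genes. On rescaled FPKM 6 rose and 2 fell, where 12.5% and 6.13% of 7492 genes did, so the balance of rises and falls depends on the scale. *Birc3*, an inhibitor of apoptosis protein induced by NF-κB, was at 388 ± 8.96 FPKM in lung and 75.3 ± 4.33 in PB (2.35 ± 0.06, limma adjusted p = 1.45e-08). *Tnfrsf1b*, the TNF receptor without a death domain, was at 481 ± 6.06 in lung and 132 ± 4.50 in PB, and *Ripk3*, a kinase of necroptosis, at 5.01 ± 0.281 and 1.23 ± 0.0385. Among the falls, *Bbc3* (PUMA, a BH3-only protein) went from 6.92 ± 0.617 in PB to 1.31 ± 0.224 in lung. *Casp9*, the initiator caspase of the apoptosome, went from 11.2 ± 0.619 to 2.81 ± 0.0703, and *Tradd*, an adaptor of TNF receptor 1, from 9.89 ± 1.29 to 3.13 ± 0.238. On rescaled FPKM *Bbc3* (-1.32) and *Casp9* (-1.15) stayed past the threshold, while *Tradd* (-0.86), *Ripk1* (-0.68), *Bad* (-0.67) and *Bnip3* (-0.51) did not, and the death receptor *Fas* (1.46) joined the rises.

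Against BM, 6 of 35 listed genes rose in lung and 15 fell on deposited FPKM (median -0.61, all genes -0.70), where 9.86% and 36.0% of all genes did. On rescaled FPKM the balance turned to 10 that rose and 5 that fell, where 19.4% and 14.8% of 8076 genes did, with *Bcl2l13* (1.10), *Bnip3* (1.08), *Ripk3* (1.17) and *Tnfrsf1a* (1.66) joining the rises and 10 of the 15 falls lost. *Tnfrsf1b* (3.90) and *Birc3* (3.03) led the rises, followed by *Pmaip1*, the BH3-only gene for NOXA that acts on MCL1 (2.17). *Vdac1*, a channel of the outer mitochondrial membrane, was 1 of the 15, at 5.23 ± 0.408 FPKM in lung and 22.1 ± 2.00 in BM. *Tradd* (-1.78) and *Casp9* (-1.75) were lower too, and all 3 stayed past the threshold after rescaling (*Vdac1* -1.15, *Tradd* -1.08, *Casp9* -1.07). In PB against BM, 6 of 35 rose and 3 fell (median -0.21, all genes -0.12), where 7.85% and 14.1% of 8237 genes did. Of the 6 further BH3-only genes tested, 4 rose there and none fell, with *Pmaip1* going from 7.57 ± 0.369 FPKM to 49.3 ± 4.0 and *Bmf*, a BH3-only gene, from 3.88 ± 0.222 to 13.6 ± 0.445. In lung against PB none of these 6 rose and 3 (*Bad*, *Bbc3* and *Bnip3*) fell on deposited FPKM, where 7.75% and 19.5% of all genes did. On rescaled FPKM *Bbc3* alone passed, and *Bmf* and *Pmaip1* turned from -0.17 and -0.38 to 0.42 and 0.24. *Tnfrsf1b* was the only listed gene called in all 3 comparisons, at 31.3 ± 0.795 FPKM in BM.

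**Figure D4:**
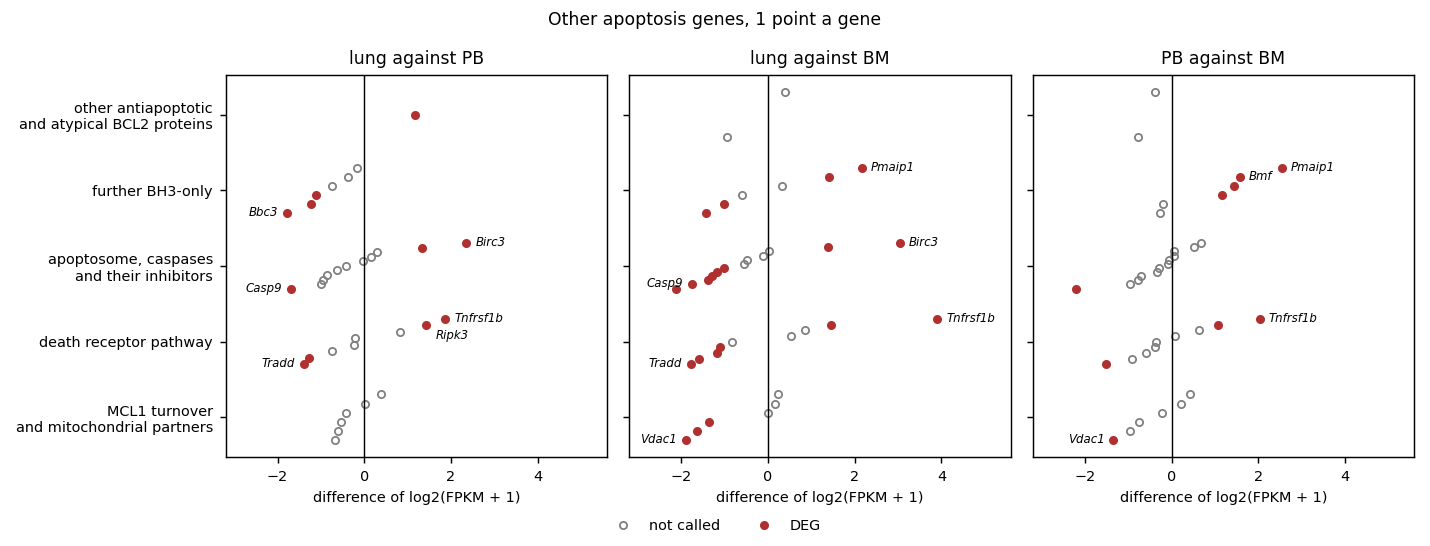
Differences of log2(FPKM + 1) on deposited FPKM for the other apoptosis genes tested, grouped by list, in lung against PB, lung against BM and PB against BM; each point is a gene, filled where it is a DEG, and the named ones have the largest changes with at least 5 FPKM in the higher group. *Birc3* and *Tnfrsf1b* lead in both lung comparisons and *Pmaip1* in PB against BM.

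The genes most like a member over the 9 tissue libraries were ranked by Pearson's r of log2(FPKM + 1) among 5892 genes (5893 for *Bcl2*) with a mean of at least 5 FPKM in a tissue. With 3 clusters of libraries, r mainly compares 3 tissue means and is given as a description. *Bcl2a1b* was followed most closely by *Marcksl1*, *Tpm4* and *Ptafr* (r = 0.999 for each), and 100 genes had r of 0.99 or more. For *Bcl2l11* they were *Acod1*, *Ptafr* and *Marcksl1* (r = 1.000 for each), of which *Acod1*, the enzyme that makes itaconate, had mean FPKM of 16.7 in BM, 131 in PB and 4041 in lung. For *Mcl1* they were *Socs3*, *Ier5* and *Rfx2* (r = 1.000, 1.000 and 0.999). *Socs3*, a feedback inhibitor of cytokine signaling, had 45.4 FPKM in BM, 447 in PB and 275 in lung. For *Bcl2* the nearest were *Smad3*, *Mvd* and *Cdkn3* (r = 0.978, 0.964 and 0.950), with no gene at 0.99.

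*WT and Piezo1-cKO neutrophils.* The second experiment asks what loss of *Piezo1* changes in lung and PB neutrophils. *Piezo1* itself was near the floor, with 5 and 5 reads in PB and 8 and 8 in lung of WT mice. In *Piezo1*-cKO mice it had 3 and 10 reads in PB and 7 and 4 in lung. The floxed part spans only some of its exons and these counts cover the whole gene, so they cannot show the deletion. The study reported loss of *Piezo1* mRNA and protein in BM neutrophils with this Cre. The 2 genotypes kept the tissue pattern of A1 and BIM transcripts. No member was a DEG between genotypes in either tissue, and smaller differences were found in A1 and BCL-XL transcripts. In PB, the *Piezo1*-cKO libraries held erythroid RNA: the 4 erythroid markers summed to 910.2 and 972 FPKM, with all 4 at 1 FPKM or more, against 20.8 and 21.0 in WT PB. The lung libraries were at 4.51 and 4.64 (WT) and between 0.422 and 1.70 (*Piezo1*-cKO). The part of this RNA in the PB results that follow was not tested, and it cannot be told apart from genotype in PB.

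**Figure D5:**
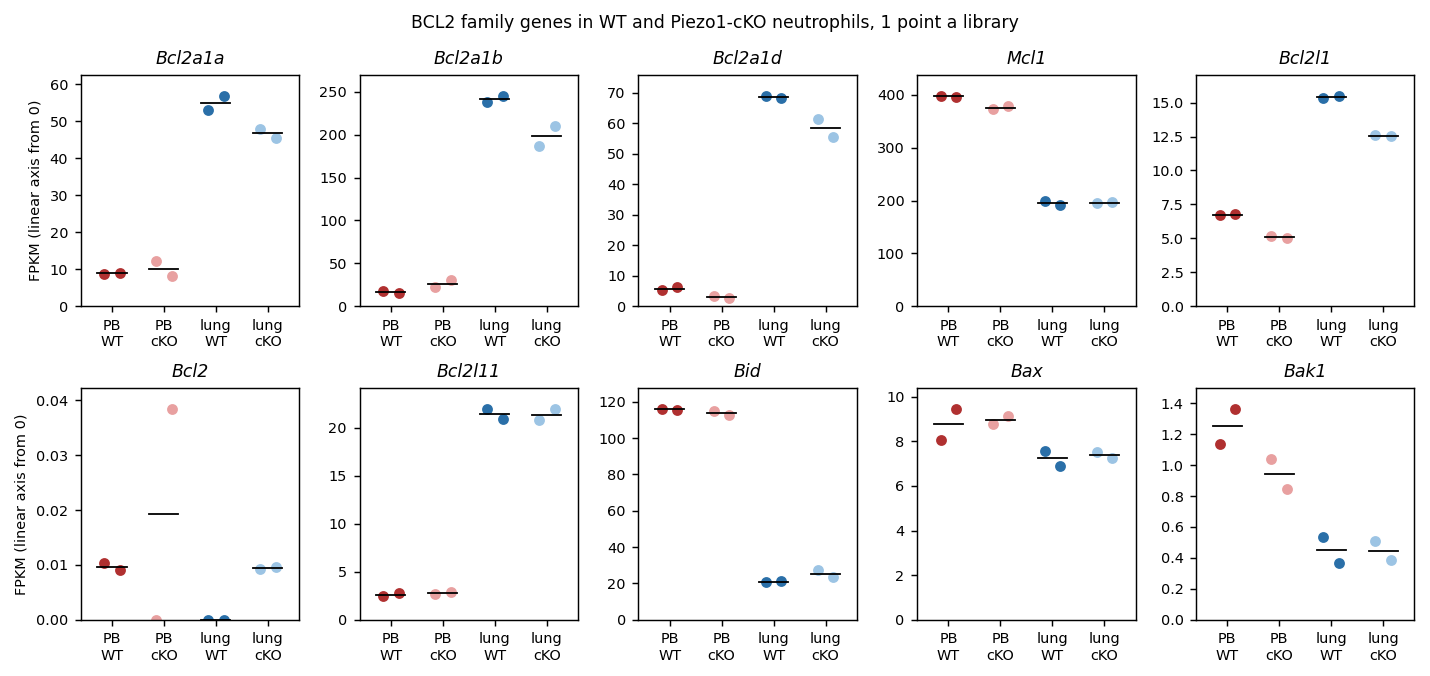
FPKM (linear axes from 0, a scale of its own for each gene) of the 10 members in PB and lung neutrophils of WT and *Piezo1*-cKO (cKO) mice; each point is 1 library and each line the mean of 2. Lung exceeds PB for the *Bcl2a1* genes, *Bcl2l1* and *Bcl2l11* in both genotypes. In PB the genotypes lie apart for *Bcl2a1b* and *Bcl2a1d*, in opposite directions.

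In WT mice of this experiment, 5 of 9 members tested rose in lung against PB and 2 fell, where 7.50% and 26.5% of 7143 genes did. In *Piezo1*-cKO mice it was 5 and 1 of 8, where 7.93% and 23.0% of 7163 genes did. The 5 were the *Bcl2a1* genes, *Bcl2l1* and *Bcl2l11* in each case, with the near-identical *Bcl2a1* copies again counted singly. The summed *Bcl2a1* genes were at 32.4 and 31.6 FPKM in WT PB and 360.3 and 370.5 in WT lung, and at 38.4 and 41.4 in *Piezo1*-cKO PB and 296 and 312 in *Piezo1*-cKO lung. The lung libraries lay above the PB ones throughout, by 3.47 ± 0.03 in WT and 2.90 ± 0.06 in *Piezo1*-cKO mice (limma adjusted p = 3.75e-10 and 9.08e-08). *Bcl2l11* went from 2.44 and 2.76 FPKM in PB to 22.0 and 20.9 in lung of WT mice, and from 2.70 and 2.92 to 20.8 and 21.9 in *Piezo1*-cKO mice. The rise was 2.64 ± 0.08 and 2.55 ± 0.08 (limma adjusted p = 9.80e-08 and 6.20e-07). *Bid* was at 116.1 and 115.6 FPKM in WT PB and 20.5 and 21.2 in WT lung, a difference of -2.42 ± 0.04, and the difference in *Piezo1*-cKO mice was -2.12 ± 0.07. *Mcl1* was at 399 and 396 FPKM in WT PB and 199 and 192 in WT lung, a difference of -1.02 ± 0.03 (limma adjusted p = 5.38e-08). That call of *Mcl1* was lost after rescaling, at -0.30, and without the second WT lung library, at -0.99. The median difference of all genes was -0.62 in WT and -0.54 in *Piezo1*-cKO mice, and rescaling moved the DEGs from 536 higher and 1893 lower to 933 and 649 in WT, and from 568 and 1644 to 988 and 554 in *Piezo1*-cKO mice.

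In lung, *Piezo1*-cKO against WT gave 0 DEGs among the 8 members tested by limma, where 0.995% of 6434 genes were DEGs, and edgeR and DESeq2 also gave 0. Unadjusted p was below 0.05 for 5, a count given without its share of all genes. Without the fold threshold, adjusted p was below 0.05 for 4 members that were lower and 1 that was higher, and for 15.8% and 35.0% of all genes. *Bcl2a1b* was at 238 and 245 FPKM in WT and 187 and 211 in *Piezo1*-cKO lung. The groups did not overlap, and the difference was -0.28 ± 0.05 (limma adjusted p = 0.00640). *Bcl2a1a* went from 53.0 and 57.0 FPKM to 48.0 and 45.6 (-0.23 ± 0.05), and *Bcl2a1d* from 69.1 and 68.2 to 61.4 and 55.7 (-0.23 ± 0.05), with limma adjusted p = 0.00827 and 0.00870. All 3 copies were thus lower by a similar amount, and their sum differed by -0.27 ± 0.03 (limma adjusted p = 0.000721). *Bcl2l1* was at 15.3 and 15.5 FPKM in WT and 12.6 and 12.5 in *Piezo1*-cKO lung (-0.28 ± 0.06, limma adjusted p = 0.00636). *Bid* was higher, at 27.2 and 23.6 FPKM against 20.5 and 21.2 (0.27 ± 0.07, limma adjusted p = 0.0169). That call of *Bid* was lost on rescaled FPKM (0.17, limma adjusted p = 0.0856), without the filter, in DESeq2 (0.17, adjusted p = 0.272), and without the first library of either genotype (0.25 for WT and 0.17 for *Piezo1*-cKO). The *Bcl2a1* calls were lost when all libraries of the experiment shared 1 fit (limma adjusted p = 0.0854 to 0.198), that of *Bcl2a1b* also without the second WT library (limma adjusted p = 0.0539), and that of *Bcl2a1d* also without the filter. *Bcl2l1* passed on adjusted p in every alternative run. The immediate early genes summed to 22098 to 22282 FPKM in WT and 19149 to 19452 in *Piezo1*-cKO lung. The 8 neutrophil markers summed to 90671 to 94101 in WT and 69194 to 73565 in *Piezo1*-cKO lung, and the 8 immature neutrophil markers to 947 to 962 and 1265 to 1266. In each list the genotypes did not overlap, and the part of these lists in the differences was not tested. *Mcl1* (199 and 192 against 195 and 198 FPKM), *Bcl2l11* and *Bax* overlapped between genotypes on deposited FPKM, and on rescaled FPKM *Mcl1* was lower by a log2 difference of -0.10 (limma adjusted p = 0.0284).

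In PB, 0 of 9 members were DEGs by limma, where 3.65% of 7256 genes were, and 0 by edgeR and DESeq2. For 3 members unadjusted p was below 0.05, again without a share of all genes. On adjusted p alone, 1 member was higher and 2 were lower, where 26.5% and 23.2% of all genes were. *Bcl2a1b* was at 18.3 and 16.0 FPKM in WT and 22.9 and 30.4 in *Piezo1*-cKO PB (0.60 ± 0.13, limma adjusted p = 0.00992). *Bcl2a1d* went the other way, from 5.24 and 6.44 FPKM to 3.39 and 2.75 (-0.75 ± 0.12, limma adjusted p = 0.00300). The copies share sequence and the counts of *Bcl2a1d* were 55 and 77 reads against 26 and 31, so the opposite directions of near-identical genes are uncertain. Their sum was higher in *Piezo1*-cKO PB, by 0.31 ± 0.06 (limma adjusted p = 0.00588). *Bcl2l1* was at 6.75 and 6.77 FPKM in WT and 5.16 and 5.05 in *Piezo1*-cKO PB, lower by a log2 difference of -0.35 ± 0.08 (limma adjusted p = 0.0106). On adjusted p, *Bcl2a1b* was lost without the filter and without the second WT library (0.51), *Bcl2a1d* in DESeq2 (adjusted p = 0.0934), and *Bcl2l1* without either WT library (limma adjusted p = 0.0549 and 0.0556). The immature neutrophil markers summed to 1922 to 1933 FPKM in WT and 3061 to 3195 in *Piezo1*-cKO PB, and the neutrophil markers to 134974 to 138678 and 112531 to 127531, and their part was not tested. *Mcl1* was at 399 and 396 against 373 and 379 FPKM, without overlap but with an adjusted p of 0.122 by limma. Of the 45 further genes, limma gave 0 DEGs in either tissue, of 30 tested in lung and 31 in PB. Unadjusted p was below 0.05 for 16 in each, while edgeR gave 2 in lung and 5 in PB, and DESeq2 0 and 3. The counts by unadjusted p, edgeR and DESeq2 have no share of all genes beside them and are not read as a result about the list. On adjusted p alone 9 were higher and 4 lower in lung, where 35.0% and 15.8% of all genes were. In PB it was 7 and 6, where 26.5% and 23.2% of all genes were.

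The effect of genotype was compared between tissues by the interaction, the effect in lung minus that in PB. By limma, 0 of 9 members passed the fold threshold, where 6.85% of 7560 genes did. Unadjusted p was below 0.05 for 3, and edgeR and DESeq2 called 1, *Bcl2a1b*, both counts given without their share of all genes. Without the fold threshold limma called these 3, while it called 48.2% of all genes, so the members did not stand out. The *Bcl2a1* copies differed in direction, at -0.88 ± 0.17 for *Bcl2a1b* and 0.52 ± 0.14 for *Bcl2a1d* (limma adjusted p = 0.00337 and 0.0169), and at -0.37 for *Bcl2a1a* (limma adjusted p = 0.137). Their sum, which was lower in *Piezo1*-cKO lung and higher in *Piezo1*-cKO PB than in WT, gave -0.57 ± 0.07 (limma adjusted p = 0.000280). For *Bcl2l1* the interaction was 0.07 ± 0.08 (limma adjusted p = 0.515), with a lower level in the *Piezo1*-cKO libraries of both tissues.

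The 2 experiments used the same gene lengths, but their FPKM stand in separate tables, so levels are set side by side without a test. The labels and the study's methods name different library kits, without saying that the experiments differed in them, and the part of the kit in these levels was not tested. *Mcl1* was 5.14-fold higher in lung of the tissue experiment than in WT lung of the *Piezo1* experiment and 3.28-fold higher in PB. *Bcl2l11* was 3.49-fold and 3.64-fold higher, and *Bak1* 19.3-fold and 22.6-fold higher, where the median over genes was 1.25-fold and 1.15-fold. *Bak1* had only 11 to 41 reads per library in the *Piezo1* experiment, against 288 to 1364 in the tissue experiment. The *Bcl2a1* genes went the other way, at 0.602-fold to 0.849-fold in lung. As a result, *Mcl1* made up 33.2% to 34.7% of the antiapoptotic sum in WT lung of the *Piezo1* experiment, and the *Bcl2a1* genes 62.7% to 64.1%. On deposited FPKM, lung and PB stood in the same order in both experiments for the *Bcl2a1* genes, *Bcl2l1*, *Bcl2l11*, *Bid*, *Bak1* and *Mcl1*. For *Bak1* in WT mice of the *Piezo1* experiment the difference was -0.63, near the median of -0.62 for all genes. On recovered reads it was -0.76 in edgeR and -0.74 in DESeq2 (adjusted p = 0.0828 and 0.345). The *Mcl1* difference in the tissue experiment turned to 0.26 after rescaling. The share each member takes differed between the experiments.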

How the data were processed

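Neutrophils were sorted by the authors and sequenced, per the labels as polyA RNA, in 150-base read pairs. The authors trimmed reads with fastp, aligned them with HISAT2 to mm10 and counted them with HTSeq; the versions are not given in the sources used here. The deposited tables hold the authors' FPKM per library and, for the *Piezo1* experiment, signal columns with the authors' mean of normalized counts. They also hold the authors' fold changes, p-values and q-values, which were not used. Whole-lung libraries were left out. The members and lists were chosen with earlier results of these data known.

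Every FPKM was a whole multiple of the value of 1 read (100% of values within 0.1 read), which gave read counts for 21878 genes, and the deposited mean signal could be rebuilt from them to within 1e-06 for 97.3% to 99.5% of genes. Counting error alone sets the floor of 3 reads. The test was limma 3.58.1 with trend and robust options on log2(FPKM + 1) in the libraries compared, for genes at 1 FPKM or more in 3 libraries (tissue) or 2 (*Piezo1* experiment), with Benjamini-Hochberg adjustment over all genes tested and a DEG at adjusted p below 0.05 and an absolute difference above 1. Fold changes on this scale understate those of low genes. Differences are the first group minus the second, and *Piezo1*-cKO minus WT. Alternatives were a pseudocount of 0.1, no filter, rescaled FPKM, a replicate block, all libraries of an experiment in 1 fit, no fold threshold, edgeR 4.0.16 (TMM and RLE) and DESeq2 1.42.0 on recovered reads, the *Bcl2a1* genes summed, and each library left out. The fits were tested on simulated data. All 10 members are named; of the 45 pathway genes, the 3 largest rises and falls among DEGs with at least 5 FPKM in the higher group and any called in all 3 tissue comparisons; other names were chosen after their values were seen. R 4.3.3, Python and GENCODE vM21 were used.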

Additional observations from a re-analysis of the deposited data

Results flagged for a closer look

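The effect of *Piezo1* deletion differed between lung and PB for 3 members, by the interaction term of limma and without the fold threshold. For *Bcl2a1b* the effect in lung minus that in PB was -0.88 ± 0.17 (SE, limma adjusted p = 0.00337): both *Piezo1*-cKO libraries were below both WT libraries in lung, and both were above in PB. For *Bcl2a1d* it was 0.52 ± 0.14 (limma adjusted p = 0.0169), with the *Piezo1*-cKO libraries lower in both tissues and more so in PB, at 26 and 31 reads. That of *Bcl2a1d* was lost on rescaled FPKM (0.37, limma adjusted p = 0.0512), without the filter (limma adjusted p = 0.0516), in DESeq2 (0.60, adjusted p = 0.113), without the second WT PB library (0.39) and without the first *Piezo1*-cKO lung library (0.45). For *Bid* it was 0.30 ± 0.09 (limma adjusted p = 0.0209), with both *Piezo1*-cKO libraries higher in lung and both slightly lower in PB (115 and 113 against 116.1 and 115.6 FPKM). That of *Bid* was lost on rescaled FPKM (0.20, limma adjusted p = 0.0793), without the filter (limma adjusted p = 0.0530), in DESeq2 (0.19, adjusted p = 0.204), without the first WT lung library (0.28) and without either WT PB library (0.29 and 0.30). That of *Bcl2a1b* passed on adjusted p in every alternative run. Without the fold threshold, 48.2% of 7560 genes had such a difference, against 3 of the 9 members. The *Piezo1*-cKO PB libraries held the erythroid RNA described above, and more RNA of immature neutrophil markers than WT PB, whose part in these differences was not tested.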

How the results depend on the processing

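Of 121 counts of members called under the alternatives, 114 stayed within 1.5 times the reported count. Without the fold threshold, 5 members passed in *Piezo1*-cKO against WT lung, 3 in PB and 3 in the interaction. In the interaction, 1 member (*Bcl2a1b*) was called by edgeR with TMM (-1.05), edgeR with RLE (-1.08) and DESeq2 (-1.07), and without the first *Piezo1*-cKO PB library (-1.08); leaving out single libraries gave 0 to 1. Leaving out a library gave 4 to 6 members in PB against BM and 6 to 7 in lung against BM, and *Bcl2a1d* had too few libraries at 1 FPKM to be tested without a PB or a lung library. The 4 came without the third PB library, where *Bcl2a1a* also fell below the threshold.

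Single values moved mostly with the scale. The values that changed sign are given in the order rescaled FPKM, edgeR with TMM, edgeR with RLE and DESeq2. For *Mcl1* in lung against PB they were 0.26, 0.25, 0.26 and 0.25, and for *Bax* 0.52, 0.58, 0.60 and 0.59. For *Bid* in lung against BM they were 0.024, 0.024, 0.071 and 0.045. In *Piezo1*-cKO against WT lung they were -0.10, -0.11, -0.11 and -0.11 for *Mcl1*, and -0.067, -0.088, -0.089 and -0.082 for *Bax*. For *Bax* in lung against PB they were 0.39, 0.44, 0.46 and 0.45 in WT and 0.32, 0.32, 0.36 and 0.35 in *Piezo1*-cKO mice. In the interaction, *Mcl1* gave -0.018, -0.0094, -0.044 and -0.041, and *Bcl2l1* gave -0.047 (rescaled), -0.017 (RLE) and -0.014 (DESeq2). Values near 0 also turned sign as single libraries were left out: *Bax* ranged from -0.16 to 0.16 (lung against PB), -0.031 to 0.086 (*Piezo1*-cKO lung), -0.070 to 0.13 (*Piezo1*-cKO PB) and -0.11 to 0.098 (interaction), *Mcl1* from -0.022 to 0.033 and *Bcl2l11* from -0.038 to 0.031 (*Piezo1*-cKO lung), and *Bcl2a1a* from -0.11 to 0.40 (*Piezo1*-cKO PB). *Bak1* in lung against PB of WT mice passed with a pseudocount of 0.1 (-1.31). Beyond the shift of the median, the cause was not tested.

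The labels do not say whether libraries of the same number share a mouse. Deviations of same-numbered libraries correlated at -0.09 to 0.08, and 1, 3 and 2 of 6 libraries correlated best with their own number in the 3 tissue comparisons. With so few libraries per group, these values cannot decide whether the numbers pair the libraries. A replicate block left the members called at 7, 7 and 6 in the tissue comparisons, 0 in both genotype comparisons and in the interaction, and 7 and 6 in lung against PB of WT and *Piezo1*-cKO mice. Low counts limit *Bcl2*, *Bak1* in the *Piezo1* experiment and *Bcl2a1d* in BM and *Piezo1*-cKO PB.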
